A study of Mus musculus with 28 samples.

Results

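The proneural basic helix-loop-helix (bHLH) factors described here are 9 mouse genes in 3 families, chosen by name: the neurogenins Neurog1, Neurog2 and Neurog3, the NeuroD genes Neurod1, Neurod2, Neurod4 and Neurod6, and the Nhlh genes Nhlh1 and Nhlh2. Of these, 8 were read from a table of 19421 genes, 5 passed a filter on low counts, 3 fell below it, and Neurod6 is not analysed here. RNA-seq was performed on 28 libraries from 7 doxycycline (Dox)-inducible mouse embryonic stem cell lines, all derived from the parental line A2loxCre and differentiated as embryoid bodies (EBs). Each line carries 1 cassette that ends in the fluorescent reporter Venus and encodes Atoh1 (iAtoh1), Gfi1 (iGfi1), Pou4f3 (iPou4f3), Gfi1 with Atoh1 (iG+A), Gfi1 with Pou4f3 (iG+P), Pou4f3 with Atoh1 (iP+A) or all 3 factors (iGPA). Atoh1 carries a FLAG tag and Pou4f3 a Myc tag in these cassettes. Dox cells received 2 µg/ml Dox for 48 h from day 4, were sorted for Venus and were harvested at day 6. No Dox EBs of the same line were harvested at day 6, untreated and unsorted, so that the effect of the transgenes, of Dox itself and of the sort cannot be told apart. Each of the 14 groups holds 2 libraries, described by the submitters as different clones, and the study compared the lines to learn how Gfi1 and Pou4f3 alter what Atoh1 does.

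Proneural factors are transcription factors that dimerise with broadly expressed E proteins, bind E-box sequences and start neuronal differentiation. They act in relays: a neurogenin or Atoh1 is typically active first, in the progenitor, and NeuroD and Nhlh genes follow in the newly born neuron. They induce Notch ligands in the same cell, while Id, Hes and Hey proteins oppose them. In the inner ear Atoh1 specifies hair cells, whereas Neurog1 and Neurod1 are known for the sensory neurons that innervate them.

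The promoters of Nhlh1, Nhlh2 and Neurod1 are shown because these 3 genes rose in every line that carries Atoh1. Each window runs from 250 bases before to 50 bases after the RefSeq start (table of GRCm38.p6), 5′ to 3′ on the strand of the gene, and each matched the NCBIM37 genome exactly once. Capitals mark the E-boxes CAGCTG and CAGATG, searched on both strands, and the Gfi1 element AATCACNGC, searched likewise. The Nhlh1 window lies on the minus strand at chr1:173987678-173987977, the Nhlh2 window on the plus strand at chr3:101813818-101814117 and the Neurod1 window on the minus strand at chr2:79296744-79297043.
Nhlh1: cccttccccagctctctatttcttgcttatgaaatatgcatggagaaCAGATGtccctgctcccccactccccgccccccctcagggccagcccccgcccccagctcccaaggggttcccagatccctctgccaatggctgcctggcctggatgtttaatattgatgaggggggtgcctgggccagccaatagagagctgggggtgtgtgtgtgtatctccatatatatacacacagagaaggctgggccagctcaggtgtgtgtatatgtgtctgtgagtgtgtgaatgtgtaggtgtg
Nhlh2: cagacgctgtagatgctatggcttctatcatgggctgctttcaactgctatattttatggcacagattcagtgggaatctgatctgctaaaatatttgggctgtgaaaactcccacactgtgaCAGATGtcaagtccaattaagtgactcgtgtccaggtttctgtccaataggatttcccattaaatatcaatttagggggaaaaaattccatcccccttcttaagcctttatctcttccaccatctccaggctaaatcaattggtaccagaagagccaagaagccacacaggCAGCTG
Neurod1: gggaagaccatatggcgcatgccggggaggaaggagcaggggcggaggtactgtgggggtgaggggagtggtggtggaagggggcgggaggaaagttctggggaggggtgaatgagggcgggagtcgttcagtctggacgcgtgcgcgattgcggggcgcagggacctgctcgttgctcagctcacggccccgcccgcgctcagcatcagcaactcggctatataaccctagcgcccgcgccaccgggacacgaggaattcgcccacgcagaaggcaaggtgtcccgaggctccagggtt
The Nhlh1 window held 1 CAGATG, at base 48 of 300, and the Nhlh2 window held 1 CAGATG at base 124 and 1 CAGCTG at base 295. No marked sequence was found in the Neurod1 window. Other E-box sequences were not searched, so that this window is not shown to lack an E-box. Over all 9 genes, which have 10 windows because Neurod4 has 2 starts, 5 windows held an E-box of either kind, in Nhlh1, Nhlh2, Neurog3, Neurod2 and 1 start of Neurod4, and 0 held the Gfi1 element. Among all 32851 windows of this length, 30.6% held either E-box (CAGCTG 16.3%, CAGATG 17.15%) and 0.919% held the Gfi1 element. A match is a description of these letters and not evidence that a factor binds there.

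The library depth, estimated from the size of the smallest steps in the table, was 30.3 to 48.0 M reads, so that 1 read was worth 0.816 to 1.22 normalized counts and 3 reads, used as the limit of detection per library, were worth 2.45 to 3.66. With Dox, Atoh1 reached 12816 to 21242 normalized counts in the 8 libraries of the 4 lines that carry it, and 14.3 to 32.5 in the 6 Dox libraries of the other lines. Group means of Gfi1 were 8792 to 11608 in the lines with Gfi1. Those of Pou4f3 were 5037 in iPou4f3, 11873 in iP+A, 14076 in iGPA and 18737 in iG+P. Comparisons of these lines with iPou4f3 therefore also differ in the level of Pou4f3, and its part in them was not tested. Transgene reads and reads of the endogenous gene cannot be told apart in these values. No library went against its label.

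Without Dox, the members were low in all 7 lines. Neurod1 was the highest of them, at 7.34 to 34.8 normalized counts (median 18.52 of 14 libraries), followed by Nhlh1 at 2.95 to 17.3 (median 7.43). Nhlh2 ran from 0 to 5.86, Neurog2 from 0 to 4.08, Neurog3 from 0 to 4.58, Neurog1 from 0 to 2.05 and Neurod4 from 0 to 1.00, and Neurod2 was at 0 in all 14. The No Dox ranges of Neurod1 and Nhlh1 overlapped each other, and those of the remaining genes lay at or near the limit of detection.

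With Dox, a member was called changed at an adjusted p under 0.05 and a difference of at least 1.5 on the log2(normalized count + 1) scale, on which all differences below are given. Nhlh1 rose in 6 of the 7 lines, Neurod1 and Nhlh2 in the 4 lines with Atoh1, Neurog1 in 3 lines and Neurog2 in 2. No member fell in any line, and at an unadjusted p under 0.05 the count of members that were lower was also 0. Among the lines with Atoh1, 3 members rose in iAtoh1, where 2.89% of all 16837 tested genes rose, 5 in iP+A (4.7%), 4 in iG+A (7.35%) and 4 in iGPA (8.65%). Among the lines without it, 1 rose in iPou4f3 (1.47%), 2 in iG+P (5.16%) and 0 in iGfi1 (2.15%). The shares of all tested genes that fell were 2.52% in iAtoh1, 2.58% in iP+A, 4.95% in iG+A and 5.31% in iGPA, and 0.606% in iPou4f3, 5.36% in iG+P and 2.67% in iGfi1. In iGfi1 cells, 0 of the 5 tested members also passed an unadjusted p under 0.05. These counts are over the 5 members that passed the filter of 10 normalized counts in 2 libraries. Neurog1 passed it only through its 2 iP+A Dox libraries, so that its results involving iP+A are a description. Without Neurog1 the counts were 4 in iP+A, 3 in iGPA and 1 in iG+P.

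**Figure D1:**
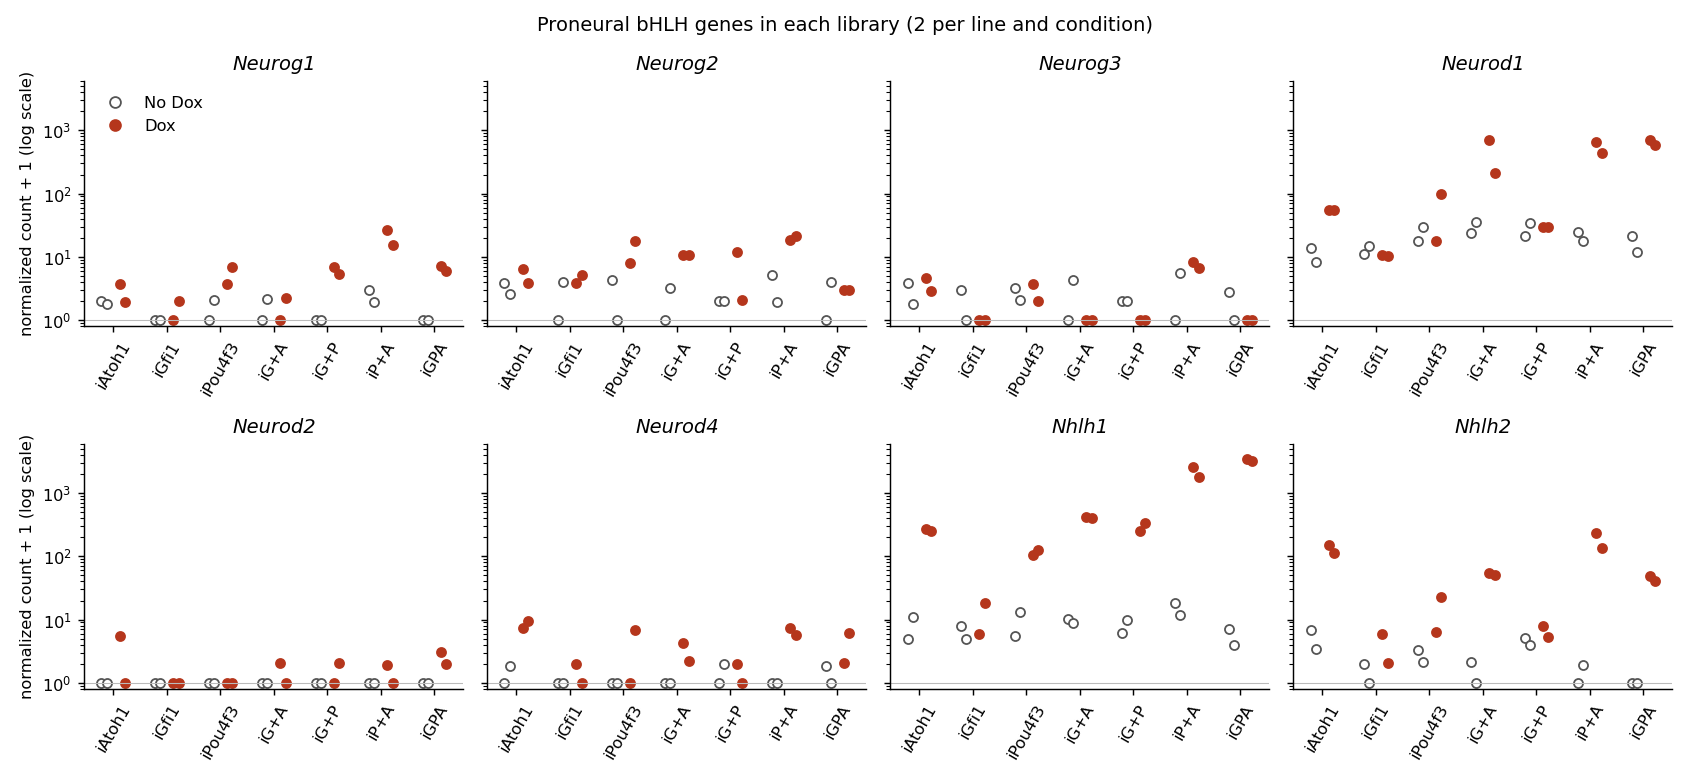
Normalized count plus 1 (log axis) of 8 proneural bHLH genes in each of 28 libraries, with No Dox as open circles, Dox as filled circles and the 7 lines along the x axis. Nhlh1 reached 1806 to 3430 normalized counts in iP+A and iGPA Dox libraries, while Neurog3, Neurod2 and Neurod4 stayed at or below 8.51 everywhere.

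Nhlh1, a bHLH factor of newly born neurons, had the largest difference of the tested members in the 6 lines where it rose (Entrez 18071, minus strand of chr1:173982423-173987704 in NCBIM37, 2 exons). In iAtoh1, iG+A and iP+A, the Nhlh2 differences (4.73, 5.16 and 6.99) lay within the Nhlh1 SE of 0.51 of those of Nhlh1. In iAtoh1 cells Nhlh1 stood at 264 and 249 normalized counts with Dox and at 3.91 and 9.79 without, a difference of 5.14 (SE 0.51, adjusted p = 1.61e-06). iPou4f3 cells gave 104 and 126 with Dox against 4.52 and 12.3 (3.76, adjusted p = 0.000165), the lowest level among the lines in which it rose. The 2 lines that combine Gfi1 with 1 other factor were intermediate, with 415 and 397 against 9.28 and 7.85 in iG+A (5.41, adjusted p = 2.31e-07) and 249 and 330 against 5.12 and 9.03 in iG+P (5.2, adjusted p = 3.95e-07). Pou4f3 with Atoh1 gave 2610 and 1806 against 17.3 and 11.0 (7.19, adjusted p = 9.95e-09). All 3 factors together gave 3430 and 3214 against 6.12 and 2.95 (9.29, adjusted p = 1.61e-10), with a Dox mean of 3322 ± 153.0 (SD, n = 2). Only in iGfi1 did Dox and No Dox libraries overlap, at 4.83 and 17.5 against 7.01 and 4.00 (0.72, adjusted p = 0.323). The call in iPou4f3 was lost when only the libraries of that line were fitted (adjusted p = 0.0618).

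Nhlh2, its paralogue, known from hypothalamic neurons, rose in the lines with Atoh1 (Entrez 18072, plus strand of chr3:101814068-101819415, 3 exons). It was at 149 and 110 with Dox against 5.86 and 2.45 in iAtoh1 (4.73, SE 0.64, adjusted p = 3.88e-05) and at 229 and 135 against 0 and 0.92 in iP+A (6.99, adjusted p = 2.27e-07). Lower Dox levels were measured in the 2 lines that add Gfi1 to Atoh1: 54.2 and 48.8 against 1.16 and 0 in iG+A (5.16, adjusted p = 4.62e-06) and 48.1 and 40.4 against 0 and 0 in iGPA. The iGPA difference was 5.49 (adjusted p = 1.47e-06), and against the limit of 3 reads per library the mean was at least 15.9-fold higher. The 4 Dox libraries with Atoh1 and Gfi1 all lay below the 4 with Atoh1 and no Gfi1, an order that 14.6% of all tested genes shared, so that it is not particular to Nhlh2. The Dox effect itself, at 5.16 in iG+A and 4.73 in iAtoh1, did not follow this order, and the untreated values were 5.86 and 2.45 in iAtoh1 against 1.16 and 0 in iG+A.

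In the lines without Atoh1 the change of Nhlh2 was not called. iPou4f3 Dox cells had 5.34 and 21.5 against 2.26 and 1.12 (2.19, adjusted p = 0.0565), iG+P 6.88 and 4.33 against 4.09 and 3.01 (0.52, adjusted p = 0.575) and iGfi1 4.83 and 1.03 against 1.00 and 0 (1.28, adjusted p = 0.146). The iPou4f3 value passed the threshold without iPou4f3 Dox replicate 1 (3.10, adjusted p = 0.0254) and without either iGfi1 Dox library (adjusted p = 0.0460 without replicate 1 and 0.0453 without replicate 2).

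Neurod1, which acts in the differentiation and survival of sensory neurons and in endocrine cells, also rose in all 4 lines with Atoh1 (Entrez 18012, minus strand of chr2:79292678-79296908, 2 exons). The increase was smallest in iAtoh1, with 54.8 and 54.9 against 12.7 and 7.34, 5.47-fold between means (2.39, SE 0.61, adjusted p = 0.00876). iP+A cells had 647 and 437 against 23.4 and 16.5 (4.69, adjusted p = 1.67e-05) and iGPA cells 694 and 592 against 20.1 and 10.8 (5.35, adjusted p = 1.27e-06), 27.1-fold and 41.6-fold between means. In iG+A the Dox libraries differed from each other, at 701 and 211, and both exceeded the No Dox values of 23.2 and 34.8 (3.71, adjusted p = 0.000104). The iAtoh1 call did not hold without iAtoh1 No Dox replicate 2 (2.03, adjusted p = 0.0757).

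Without Atoh1, the change of Neurod1 was not called, either in iG+P, at 28.5 and 28.1 against 20.5 and 33.1 (0.11, 95% interval -1.17 to 1.4, adjusted p = 0.909), or in iGfi1, at 9.67 and 9.27 against 10.0 and 14.01 (-0.30, interval -1.58 to 0.99, adjusted p = 0.759). iPou4f3 Dox libraries, which spread widely, gave 16.9 and 95.8 against 16.9 and 29.0 (0.84, adjusted p = 0.512). The second iPou4f3 Dox library was higher than the first for Neurod1 and also for Neurog1, Neurog2, Neurod4, Nhlh1 and Nhlh2. Its summed level of 15 neuron markers was lower, at 8852 against 10704 normalized counts, while 15 of them reached 10 normalized counts, against 14 in the first library.

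Neurog1, Neurog2 and Neurog3 did not exceed 25.3 normalized counts in any library, so that their values carry large counting error. Neurog1, which specifies inner ear neurons (Entrez 18014, minus strand of chr13:56351866-56353524, 1 exon), was highest in iP+A Dox cells, at 25.3 and 14.4 against 2.05 and 0.92, a difference of 3.06 that is given as a description because these 2 libraries alone brought it past the filter. It was called in iGPA, at 6.12 and 5.04 against 0 and 0 (2.71, adjusted p = 0.00116), and in iG+P, at 5.93 and 4.32 against 0 and 0 (2.60, adjusted p = 0.00233). Against 3 reads per library, the iGPA mean was at least 2.00-fold and the iG+P mean at least 1.69-fold higher. iPou4f3 cells gave 2.68 and 5.86 against 0 and 1.11 (1.79, adjusted p = 0.101). The lines without Pou4f3 had 0 to 2.74 with Dox. With a pseudocount of 5 in place of 1, the differences in iGPA (1.08) and iG+P (1.01) fell under the size threshold, and without either iP+A Dox library Neurog1 no longer passed the filter.

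Neurog2, a neurogenin of cortical and sensory progenitors (Entrez 11924, plus strand of chr3:127336054-127338549, 2 exons), was at 17.2 and 20.1 with Dox against 4.08 and 0.92 in iP+A (2.65, SE 0.91, adjusted p = 0.0409) and at 9.56 and 9.76 against 0 and 2.24 in iG+A (2.57, adjusted p = 0.0312). Both calls were lost when a library of their own line was left out: iP+A without No Dox replicate 2 (1.95, adjusted p = 0.265), Dox replicate 1 (2.76, adjusted p = 0.130) or Dox replicate 2 (2.54, adjusted p = 0.150), and iG+A without No Dox replicate 1 (1.72, adjusted p = 0.249), Dox replicate 1 (2.58, adjusted p = 0.0945) or Dox replicate 2 (2.55, adjusted p = 0.0950). iGPA Dox libraries had 2.04 and 2.02 against 0 and 2.95 (0.61, adjusted p = 0.619). In iPou4f3 the values were 7.13 and 16.6 against 3.39 and 0 (2.51, adjusted p = 0.134), in iG+P 10.8 and 1.08 against 1.03 and 1.00, in iAtoh1 5.48 and 2.84 against 2.93 and 1.63, and in iGfi1 2.90 and 4.11 against 0 and 3.01, none of which was called.

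Neurog3, Neurod2 and Neurod4 were below the filter and are given by their values. Neurog3, the determinant of pancreatic endocrine progenitors, did not exceed 7.22, its level in 1 iP+A Dox library, where the other had 5.74 and the No Dox libraries 0 and 4.58. It was at 0 in all 8 Dox libraries of iGfi1, iG+A, iG+P and iGPA, the 4 lines with Gfi1, although No Dox libraries of these lines reached 3.37 at most, which is near the limit of detection. Neurod2, a factor of forebrain neurons, was detected at 4.57 in 1 iAtoh1 Dox library and at 0 in the other. Neurod4, a factor of retinal and cranial neurons, had 6.4 and 8.51 in iAtoh1 Dox cells and 6.34 and 4.81 in iP+A Dox cells, with no No Dox library above 1.00. With Gfi1 beside Atoh1 the Neurod4 values were 3.19 and 1.22 in iG+A and 1.02 and 5.05 in iGPA, so that the iGPA libraries overlapped those of iP+A. In a fit without the filter, Neurod4 was called in iAtoh1 (2.64, adjusted p = 0.0135) and iP+A (2.71, adjusted p = 0.0104), and neither Neurog3 nor Neurod2 in any line.

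**Figure D2:**
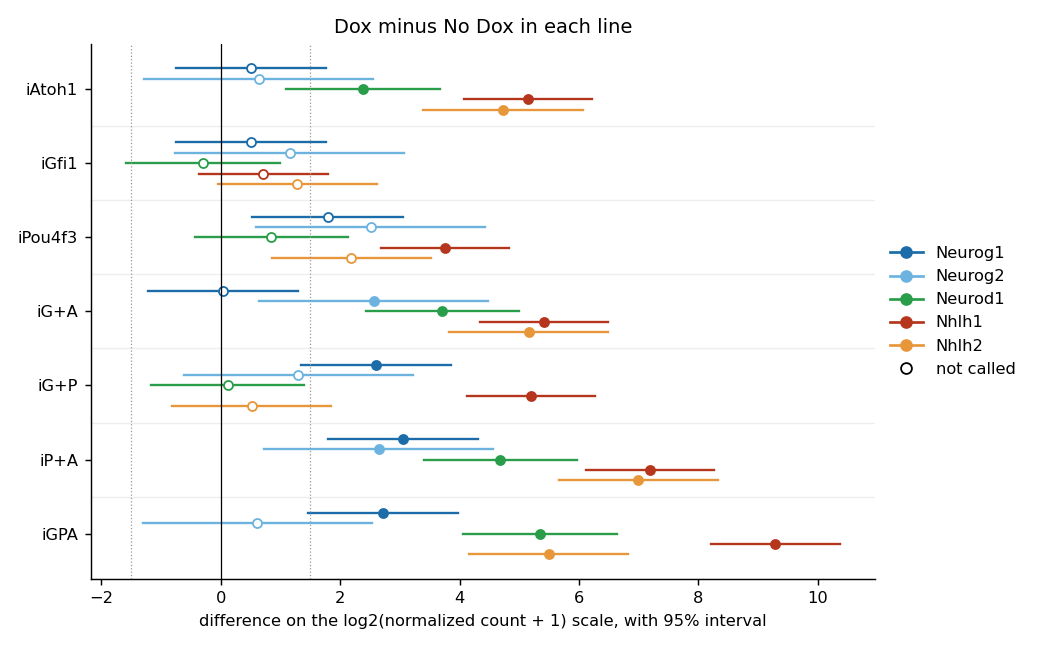
Dox minus No Dox on the log2(normalized count + 1) scale (x axis) for the 5 tested members in each line (y axis), with 95% intervals from limma and 2 libraries per group. Filled points were called, dotted lines mark 1.5 in either direction, and the Nhlh1 interval of iGPA (8.21 to 10.37) overlapped only those of Nhlh1 (up to 8.27) and Nhlh2 (up to 8.33) in iP+A.

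Levels were compared between members per kilobase of exon in the NCBIM37 annotation. With Dox, Nhlh1 had the highest mean of the 8 genes in 6 lines, up to 1348 ± 62.1 normalized counts per kilobase in iGPA (SD, n = 2). In iGfi1 this order did not hold beyond the spread, since Nhlh1 stood at 4.53 ± 3.64 and Neurod1 at 3.47 ± 0.104. In iG+A, Neurod1 at 167 ± 127 and Nhlh1 at 165 ± 5.21 did not differ beyond the spread of their libraries. Neurod1 came second in iP+A at 199 ± 54.4 and in iGPA at 236 ± 26.5, whereas Nhlh2 came second in iAtoh1 at 38.6 ± 8.26, above Neurod1 at 20.1 ± 0.0263. In iPou4f3, Nhlh1 at 46.7 ± 6.31 and Neurod1 at 20.7 ± 20.4 did not differ beyond the spread of their libraries. Neurog2 followed at 5.33 ± 3.01 and Nhlh2 at 4.01 ± 3.41, and Neurod1, Neurog2 and Nhlh2 did not differ beyond their spread. Among the neurogenins in iP+A, Neurog1 at 11.97 ± 4.66 and Neurog2 at 8.39 ± 0.942 did not differ beyond the spread of their libraries.

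The 8 Dox libraries of lines with Atoh1 lay above all 14 No Dox libraries for 3 members, Neurod1, Nhlh1 and Nhlh2, a pattern that 3.97% of tested genes showed. Against the 6 Dox libraries of lines without Atoh1, the 8 libraries did not overlap for Nhlh2 alone (40.4 and above, against 21.5 and below), which 2.49% of tested genes showed. Neurod1 overlapped through the second iPou4f3 Dox library, and Nhlh1 through iG+P.

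Lines that differ by 1 factor were compared by the difference of their Dox effects, over 9 pairs of lines. Adding Atoh1 raised Neurod1, Nhlh1 and Nhlh2 in each background. To Gfi1, it added 4.01 for Neurod1 (SE 0.86, adjusted p = 0.00266), 4.70 for Nhlh1 (SE 0.73, adjusted p = 0.000213) and 3.87 for Nhlh2 (SE 0.90, adjusted p = 0.00434), that is 3 members where 5.17% of tested genes were higher. To Pou4f3, it added 3.84, 3.44 and 4.81 (adjusted p = 0.0179, 0.0115 and 0.00467; 1.44% of tested genes). In this pair the Pou4f3 Dox mean differed as well, at 5037 in iPou4f3 and 11873 in iP+A. To Gfi1 with Pou4f3, Atoh1 added 5.23, 4.09 and 4.97 (adjusted p = 0.000505, 0.000914 and 0.00107; 4.24% of tested genes). Averaged over the 3 backgrounds, Atoh1 added 4.36 for Neurod1, 4.08 for Nhlh1 and 4.55 for Nhlh2 (adjusted p = 4.27e-06, 1.27e-06 and 4.13e-06), with 3.64% of tested genes higher. For Neurog1 and Neurog2 this average was 0.30 (interval -0.73 to 1.33) and 0.28 (interval -1.28 to 1.85).

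The calls from iPou4f3 to iP+A depended on which libraries were fitted. When only the libraries of both lines were fitted, none of the 3 genes passed (adjusted p = 0.132 for Neurod1, 0.0528 for Nhlh1 and 0.0640 for Nhlh2). Neurod1 missed the threshold without iPou4f3 No Dox replicate 2 (3.47, adjusted p = 0.0844), iPou4f3 Dox replicate 1 (2.62, adjusted p = 0.0871), iP+A No Dox replicate 2 (3.60, adjusted p = 0.0603) or iP+A Dox replicate 1 (3.56, adjusted p = 0.105). Nhlh1 did so without iPou4f3 No Dox replicate 2 (2.80, adjusted p = 0.0732), iPou4f3 Dox replicate 1 (3.30, adjusted p = 0.0505) or iP+A Dox replicate 1 (3.17, adjusted p = 0.0820).

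Adding Pou4f3 raised Nhlh1 by 4.48 relative to Gfi1 alone (SE 0.73, adjusted p = 0.00115; 1 member, 1.42% of tested genes) and by 3.88 relative to Gfi1 with Atoh1 (adjusted p = 0.00357; 1 member, 1.6% of tested genes). Neurog1, near the limit of detection, was higher by 2.09 and 2.68 in these pairs but not called (adjusted p = 0.207 and 0.0870). Between the Dox libraries alone, Neurog1 passed in both, at 2.09 and 2.14 (adjusted p = 0.0194 and 0.0242; 2.32% and 2.18% of tested genes higher). Relative to Atoh1 alone, 0 members passed (2.09% of tested genes), although Neurod1 (2.30), Nhlh1 (2.05) and Nhlh2 (2.27) were each higher at an unadjusted p under 0.05, with adjusted p from 0.120 to 0.178. The Neurog1 difference of 2.55 is a description, as iP+A is in this pair. With a pseudocount of 5, Nhlh1 passed in this pair (2.34, adjusted p = 0.0102). Over the 3 backgrounds, Pou4f3 added 3.47 for Nhlh1 (adjusted p = 1.54e-05), 1 member where 2.25% of tested genes were higher. The Neurog1 average was 2.44, or 1.22 with a pseudocount of 5, and is a description since iP+A is part of it. Neurod1 averaged 1.45 (adjusted p = 0.0711), a value that passed without iG+A Dox replicate 1 (1.74, adjusted p = 0.0233).

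Adding Gfi1 changed no member past the threshold in any background. The share of tested genes that were higher was 4.44% from iAtoh1 to iG+A, 3.43% from iPou4f3 to iG+P and 4.76% from iP+A to iGPA, and averaged over the 3 backgrounds 0 members passed against 4.84% of tested genes. Unadjusted p-values under 0.05 were obtained for 0, 0 and 1 members in these pairs, and for 1 member in the average. That member was Nhlh1, with 2.10 from iP+A to iGPA (interval 0.58 to 3.62, adjusted p = 0.0517, or 0.0439 with a replicate block) and 1.27 on average (adjusted p = 0.0250), which is past the p threshold but under the size threshold. Untreated Nhlh1 differed too, at 17.3 and 11.0 in iP+A against 6.12 and 2.95 in iGPA. Between the Dox libraries alone, the limma difference was 0.61 (adjusted p = 0.376). Nhlh2 showed -0.91 on average (interval -2.0 to 0.18, adjusted p = 0.193), with -1.67 from iPou4f3 to iG+P (interval -3.55 to 0.22), -1.5 from iP+A to iGPA (interval -3.39 to 0.39) and 0.43 from iAtoh1 to iG+A (interval -1.46 to 2.32). No member was called lower in any of the 9 pairs, nor was any lower at an unadjusted p under 0.05. The shares of tested genes that were lower ran, in the order of the 3 backgrounds, 3.37%, 0.172% and 1.66% on adding Atoh1, 0.689%, 0.428% and 0.6% on adding Pou4f3 (to Atoh1, to Gfi1, to Gfi1 with Atoh1), and 2.44%, 4.19% and 2.84% on adding Gfi1 (to Atoh1, to Pou4f3, to Pou4f3 with Atoh1).

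**Figure D3:**
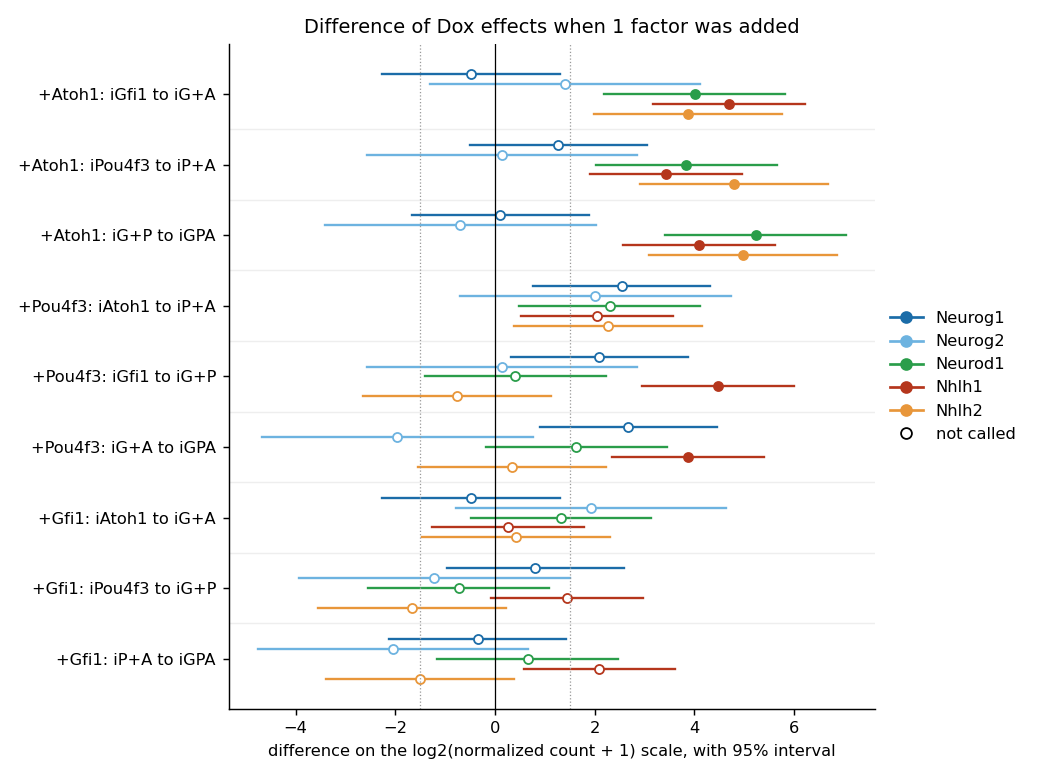
Difference of Dox effects between lines that differ by 1 factor (x axis, log2 scale, 95% intervals) for the 5 tested members, in 9 pairs of lines grouped by the factor added (y axis). In the 3 pairs that add Atoh1, Neurod1, Nhlh1 and Nhlh2 lay between 3.44 and 5.23, and no point of the 3 pairs that add Gfi1 was called.

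When Dox libraries were compared directly with each other, a comparison chosen after seeing the data and not free of differences between untreated lines, Nhlh2 was lower in iGPA than in iP+A (-1.97, SE 0.64, adjusted p = 0.0206). Neurog2 was lower as well (-2.69, adjusted p = 0.0267), while Nhlh1 (0.61, adjusted p = 0.376) and Neurod1 (0.27, adjusted p = 0.768) were not called. Of all tested genes, 5.19% were lower and 5.3% higher in this comparison. Neurog1 passed the filter only through its iP+A Dox libraries, and its value of -1.62 is therefore given as a description. Between iAtoh1 and iG+A, the same comparison gave -1.30 for Nhlh2 (adjusted p = 0.122) and 2.79 for Neurod1 (adjusted p = 0.00158), where 6.5% of tested genes were higher and 3.92% lower. For Nhlh2 in this pair, the difference of Dox effects had the opposite sign, at 0.43. From iAtoh1 to iP+A, the direct comparison gave 3.25 for Neurod1 (adjusted p = 0.00106) and 3.08 for Nhlh1 (adjusted p = 0.000361), both called, where 3.45% of tested genes were higher and 1.26% lower, and 2.90 for Neurog1 as a description.

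The Dox effects of 2 factors together were compared with the sum of their single effects on the log2 scale. No member exceeded or fell short of the sum past the threshold in iG+A, iG+P or iP+A, where 2%, 0.119% and 0.232% of tested genes were above the sum and 0.998%, 0.0891% and 0.19% below it. At an unadjusted p under 0.05, 0 members were above and 1 was below: Nhlh2 in iG+P (-2.95, SE 1.10, interval -5.26 to -0.64, adjusted p = 0.403). For Nhlh1 in iP+A the departure was -1.71 (interval -3.57 to 0.16). With SEs of 0.89 to 1.58, small departures were not detectable. The sums for iG+P and iP+A also take in the lower Pou4f3 level of iPou4f3.

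The patterns of the members were compared over the 14 group means, which share lines and controls, and no r of other gene pairs was taken as a background. Pearson's r between Nhlh1 and Neurod1 was 0.90, that between Nhlh1 and Nhlh2 0.88 and that between Neurog1 and Nhlh1 0.83, and the lowest was 0.59, between Neurod1 and Neurog2. Among all tested genes, the pattern most like that of Nhlh1 belonged to Lmo1, a LIM-only transcriptional cofactor (r = 0.980), followed by Zeb2os and Dscaml1. Neurod1 was followed most closely by Pclo, a presynaptic scaffold protein (r = 0.972), Mark4 and Thsd7a, and Nhlh2 by Septin3, a neuronal septin (r = 0.958), Mgll and Zfp608. For Neurog1 these were Ush1g, a scaffold of hair cell stereocilia (r = 0.955), Dynlt1b and Asic1, and for Neurog2 a gene with no symbol (Entrez 434446, r = 0.907), Nfya and Ankef1. All correlations of Neurog1, also that with Nhlh1, include its iP+A Dox mean, and are therefore a description.

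Among the partners of proneural factors, the 3 E proteins Tcf3, Tcf4 and Tcf12 were abundant in every library and none was called in any line. Tcf4 moved most in iP+A, from 5193 and 4722 to 7566 and 7349 (0.59, SE 0.08, adjusted p = 4.49e-05), under the size threshold. Of 15 other neural bHLH genes, 14 were read and 7 tested. Of these, 3 rose in iAtoh1 (2.89% of all tested genes rose), 2 in iP+A (4.7%), 2 in iG+A (7.35%), 5 in iGPA (8.65%), 1 in iPou4f3 (1.47%), 3 in iG+P (5.16%) and 1 in iGfi1 (2.15%). In each of iG+P and iGfi1, 1 fell, where 5.36% and 2.67% of all tested genes fell. The counts of the other gene lists below stand beside these same shares.

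Bhlhe22, a bHLH repressor of neurons, was highest with Atoh1 and no Gfi1. It stood at 688 and 424 with Dox in iP+A (5.72, SE 0.61, adjusted p = 1.53e-06) and 188 and 144 in iAtoh1 (2.89, adjusted p = 0.00225), against 29.6 and 18.1 in iGPA (1.88, adjusted p = 0.0167) and 3.19 and 8.54 in iG+A (-0.70, adjusted p = 0.376). Olig3, a factor of dorsal neural progenitors, showed the opposite order, with 147 and 182 in iG+A (5.64, adjusted p = 1.19e-05) and 70.4 and 105 in iGPA (4.74, adjusted p = 5.51e-05) and at most 6.33 in the other Dox libraries. Ascl2, an achaete-scute factor of placenta and intestinal stem cells, rose in iGPA to 238 and 481 (4.74, adjusted p = 1.19e-05) and in iG+P to 201 and 85.3 (1.98, adjusted p = 0.0258).

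Of the 11 Id, Hes and Hey genes, which oppose proneural factors, 5 rose in iAtoh1, 3 in iP+A, 5 in iG+A, 5 in iGPA, 0 in iPou4f3, 4 in iG+P and 0 in iGfi1, and 1 fell, in iG+P. The Notch effector Hes5 rose to 280 and 343 with Dox in iG+A from 1.16 and 4.50 (6.50, adjusted p = 1.44e-05), and had 14.5 and 9.58 in iP+A (2.33, adjusted p = 0.0630). Heyl, another Notch effector, stood at 1062 and 1881 in iG+A (6.55, adjusted p = 1.54e-08) and 144 and 79.8 in iP+A (2.41, adjusted p = 0.00147). Hey1 likewise rose in iG+A to 3152 and 3087 (3.09, adjusted p = 3.14e-07) and in iP+A to 1886 and 1613 (1.98, adjusted p = 8.99e-05). In iAtoh1, Hes5 rose to 61.0 and 33.2 (2.96, adjusted p = 0.0217) and Heyl to 495 and 477 (4.69, adjusted p = 2.71e-06), while Hey1 had 1607 and 958 (0.95, adjusted p = 0.0295), under the size threshold. All 3 rose in iGPA too, Hes5 to 179 and 268 (6.20, adjusted p = 1.66e-05), Heyl to 640 and 876 (5.70, adjusted p = 4.44e-08) and Hey1 to 2271 and 3107 (2.74, adjusted p = 7.89e-07).

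Of 21 genes known downstream of proneural factors, 20 were tested, and 10 rose in iAtoh1, 11 in iP+A, 11 in iG+A, 13 in iGPA, 4 in iPou4f3, 7 in iG+P and 2 in iGfi1, with 1 that fell, in iG+P. Their median Dox effect was 2.92 in iGPA, 2.52 in iG+A, 2.21 in iP+A and 1.55 in iAtoh1, and 0.98 in iG+P, 0.39 in iGfi1 and 0.04 in iPou4f3, beside medians over all tested genes of -0.03 to 0.02. Myt1, a zinc finger factor of nascent neurons, reached 5900 and 4037 in iP+A (10.05, SE 0.43, adjusted p = 1.35e-11), 2970 and 2807 in iGPA (7.99, adjusted p = 1.30e-10) and 194 and 270 in iPou4f3 (5.67, adjusted p = 1.69e-07), but 45.4 and 18.1 in iAtoh1 (1.65, adjusted p = 0.00943). Insm1, a zinc finger factor shared by neuronal and endocrine differentiation, rose in 6 lines and was highest in iGPA at 5822 and 6019 (8.93, SE 0.49, adjusted p = 1.57e-10).

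**Figure D4:**
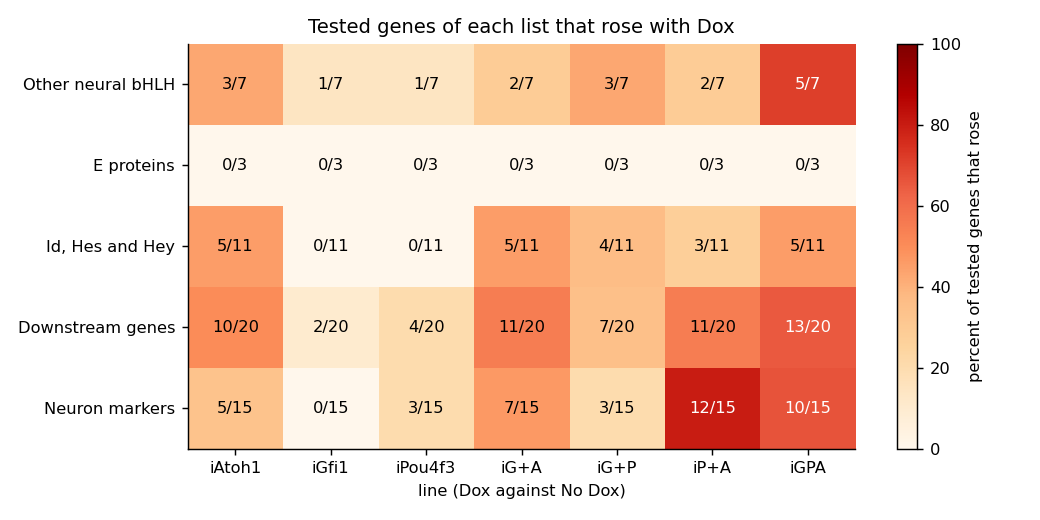
Number of tested genes of each list that rose with Dox, of those tested, in each of the 7 lines, with the colour giving the percent of tested genes. Downstream genes rose most often in iGPA (13 of 20) and neuron markers in iP+A (12 of 15), and no E protein rose in any line.

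Marker genes of several cell types were read in the same libraries. Of 15 neuron markers, 12 rose in iP+A, 10 in iGPA, 7 in iG+A, 5 in iAtoh1, 3 in iPou4f3, 3 in iG+P and 0 in iGfi1, and 1 fell in each of iGfi1, iG+A, iG+P and iGPA. Their summed level was 37326 and 29868 normalized counts in iP+A Dox cells, 14592 and 14038 in iGPA, 10704 and 8852 in iPou4f3 and 8984 and 7172 in iAtoh1. It was 6175 and 5657 in iG+A, 5908 and 5811 in iG+P and 3828 and 4175 in iGfi1, against 4090 to 6506 in the No Dox libraries. The iG+A sums lay within the No Dox range, although 4 members rose there, and the iPou4f3 sums above it, where 1 member rose. Between iP+A and iGPA, the Dox effect was smaller in iGPA for 2 of the 15 markers and larger for 1, where 2.84% of all tested genes were lower and 4.76% higher, with a median difference of -0.19 beside 0.02 over all tested genes. Nefm was the only one of the 15 at 0, in 1 Dox library, and in the No Dox libraries none was at 0. Fewer cells of a type and less RNA per cell cannot be told apart in these bulk samples.

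The summed levels of 8 pluripotency genes were 4841 to 16106 with Dox and 7284 to 28624 without, those of 8 fibroblast genes 8051 to 75006 and 47051 to 112437, those of 9 mesoderm and blood genes 20860 to 257309 and 64320 to 357163, and those of 6 endoderm genes 1532 to 7675 and 3276 to 5983. Single genes carried much of these sums, such as Hbb-bh1 (up to 226674 with Dox) and Gata6 (up to 7256). In iGPA, 7 fibroblast, 3 pluripotency, 3 mesoderm and blood and 2 endoderm genes fell (5.31% of all tested genes), and 1 fibroblast gene rose. In iP+A, 1, 4, 4 and 1 fell in this order (2.58%), and 1 fibroblast gene rose. In iPou4f3, 0, 0, 0 and 1 fell (0.606%). The 7 neural progenitor genes summed to 2360 to 6124 and 1913 to 7077. The 9 endocrine genes summed to 69.5 to 5378 with Dox and 75.1 to 168 without, with the highest Dox values in iGPA, 5301 and 5378, where Sst reached up to 4950. Ins1 was at 0 in all 14 No Dox libraries and in 10 Dox libraries, and Gcg in 11 and 9. The part of these other cells in the members' levels was not tested.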

How the data were processed

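The deposited values are log2(normalized count + 1), which the authors made with cutadapt for trimming, Kallisto for pseudo-alignment (knownGene of mm9), tximport for gene totals and DESeq2 for normalization. The table holds 19421 Entrez genes, of which 19314 were named from RefSeq. Here, 2 to the power of each value, minus 1, gave normalized counts. Whole reads could not be recovered, so no count model was run. The 16837 genes that reached 10 normalized counts in 2 or more libraries entered a limma fit (version 3.58.1, R 4.3.3) with a variance trend, 14 groups and 14 residual degrees of freedom, and adjusted within each contrast over all these genes by Benjamini-Hochberg. P-values rest on the spread between 2 clones per group, pooled over all 14 groups and moderated with the variance trend. Whether equal replicate numbers mark the same clone with and without Dox is not known. Deviations of Dox and No Dox libraries with the same number correlated by 0.10 to 0.25 in the 7 lines, and the blocked fit was run as an alternative. Besides the 3 genes most correlated with each member, a rule names at most 3 genes per list by the largest change in iAtoh1, iP+A or iGPA. It covers the other neural bHLH genes, the E proteins, the Id, Hes and Hey genes and the downstream genes. Single marker genes of cell types are named outside this rule. One gene that this rule selects is not reported here. Members and lists were chosen with earlier results of these data known. Genes were placed by GENCODE M1 on NCBIM37. Alternatives covered the pseudocount, the filter, scaling, the libraries fitted, the control group and each library left out.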

Additional observations from a re-analysis of the deposited data

Results flagged for a closer look

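Differences of Dox effects between lines that differ by 1 factor passed the test in 11 cases, all on the log2(normalized count + 1) scale, all positive and all in Neurod1, Nhlh1 or Nhlh2. From iGfi1 to iG+A the Dox effect was larger by 4.01 for Neurod1, 4.70 for Nhlh1 and 3.87 for Nhlh2. From iPou4f3 to iP+A it was larger by 3.84 for Neurod1, 3.44 for Nhlh1 and 4.81 for Nhlh2, and these were the least stable of the 11. From iG+P to iGPA it was larger by 5.23 for Neurod1, 4.09 for Nhlh1 and 4.97 for Nhlh2. Adding Pou4f3 gave the other 2, both for Nhlh1, at 4.48 from iGfi1 to iG+P and 3.88 from iG+A to iGPA. Groups of 2 libraries were too small for a test of single outlying libraries.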

How the results depend on the processing

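Of 35 called results for single members, 25 kept their call in every alternative that gave a value, and none of the 35 changed direction past the threshold. Both counts include Neurog1 in iP+A, called in all 36 alternatives that gave a value. Leaving out either iP+A Dox library gave no value for it, so that its kept call is no support. Of 75 uncalled results, 17 passed the threshold in at least 1 alternative. The number of members that rose in iPou4f3 was 2 after quantile normalization, 0 with only the groups compared in the fit, 4 with the 14 untreated libraries as one control group, and 1 to 2 when a library was left out (2 without iPou4f3 Dox replicate 1 or either iGfi1 Dox replicate). In iG+P it was 1 with a pseudocount of 5, 1 with a filter of 50 normalized counts, 3 with the 14 untreated libraries as one control group (Nhlh2 added, 1.64, adjusted p = 0.0429) and 1 to 2 with a library left out. In iP+A it was 3 with the filter of 50 and 3 to 5 with a library left out (3 without either iP+A Dox replicate), and 4 with a pseudocount of 0.5 (Neurog2 lost, adjusted p = 0.0803) or with only the groups compared in the fit (Neurog2 lost, adjusted p = 0.0544). In iG+A it was 3 rather than 4 with a pseudocount of 5 (Neurog2 lost, 1.28), with only the groups compared (Neurog2 lost, adjusted p = 0.0650) and with the filter of 50. In iGPA it was 3 rather than 4 with a pseudocount of 5 (Neurog1 lost, 1.08) and with the filter of 50. Without a filter, Neurod4 was added in iAtoh1 (4) and iP+A (6). The filter of 50 left Neurog1 and Neurog2 untested, and leaving out an iP+A Dox library left Neurog1 untested. Member calls over the 9 pairs numbered 11 higher and 0 lower, with 14 higher (13 without Neurog1) and 1 lower at a pseudocount of 5 (the lower one Nhlh2, iP+A to iGPA, -1.76, adjusted p = 0.0260), and 18 higher and 3 lower when Dox libraries were compared directly (14 and 2 without Neurog1, which passed the filter only through iP+A Dox libraries), where 2.18% to 6.5% of tested genes were higher and 1.26% to 5.33% lower. The replicate block gave 12 higher calls over the pairs, the added one being Nhlh1 from iP+A to iGPA (2.10), and changed no other call. Nhlh1 from iP+A to iGPA passed in 12 of 39 alternatives (adjusted p from 0.0268 to 0.376). Differences of a few reads in Neurog1, Neurog2, Neurog3, Neurod2 and Neurod4 are limited by depth.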

Other observations

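Untreated libraries of the Atoh1 lines already held more Atoh1 than those of the other lines, with group means of 38.2 to 102 normalized counts against 3.56 to 10.1, and their Nhlh1 means of 4.53 to 14.2 overlapped the 5.51 to 8.39 of the lines without Atoh1.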
